A study of Mus musculus with 8 samples.

Results

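The transcription factors that set up and hold acinar identity in the exocrine pancreas were followed by their symbols, Ptf1a, Rbpjl, Bhlha15, Nr5a2, Gata4 and Gata6. All 6 were among the 15047 gene symbols of the RNA-Seq data, and each had a value in all 8 mice. RNA-Seq was performed on the pancreas of male mice, 3 wild-type C57BL/6 mice on low-fat diet (LFD), 3 wild-type C57BL/6 mice on high-fat diet (HFD) and 2 C57BL/6J mice homozygous for the ob allele of leptin (ob/ob). The diets began when the mice were 4 weeks old and lasted 10 weeks, with 60% of the HFD calories coming from fat, while the ob/ob mice received standard chow. According to the study, all of these mice carried orthotopic transplants of mT organoids, which derive from pancreatic tumors of engineered mice that carry Pdx1-Cre, a transgene that drives Cre in pancreatic epithelium. The sample labels do not name the transplant, and the time of tissue sampling was not given in the sources used here. The host kept its own pancreas, so RNA of host acinar cells and of transplanted cells came in 1 extract. Genotype and diet differ together between ob/ob and LFD mice and cannot be told apart. Lep itself was at 8.12 and 6.78 in ob/ob mice and at 6.20, 5.86 and 6.28 in LFD mice, but the ob allele is a point mutation, so this level checks no genotype.

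Acinar cells fill most of the pancreas and secrete digestive enzymes. Ptf1a is a basic helix-loop-helix (bHLH) protein that works in a complex called PTF1, with an E protein and with Rbpjl, the pancreas form of the Notch effector Rbpj, and this complex binds the promoters of enzyme genes. Nr5a2 is a nuclear receptor that acts together with PTF1, Bhlha15 (also called Mist1) is a bHLH factor of secretory cells that scales up the secretory machinery, and Gata4 and Gata6 are zinc finger factors required in pancreas development, of which Gata6 is also used in ductal and tumor epithelium.

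All values are rlog values as deposited, a log2 scale on which counts are corrected for library size and on which the differences of genes with few reads are shrunken. A difference of 1 is therefore a factor of about 2, levels of different genes are not compared because rlog is not scaled to length, and a mouse's level is also given as a percent of the LFD mean on the linear scale. The sequencing depth is unknown, and the spread between mice is the only error available. Replicates are different animals by their labels.

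The label of the tissue was checked with 32 secreted products of acinar cells, all of which were measured, such as Amy2a5 (pancreatic amylase, the most abundant), Try4 (a trypsinogen), Ctrc (chymotrypsin C) and Pla2g1b (pancreatic phospholipase). Their mean rlog value was 16.81, 17.10 and 17.39 in the LFD mice, 17.19, 15.07 and 13.18 in the HFD mice and 16.44 and 13.48 in the ob/ob mice. They took 61.0%, 61.9% and 63.2% of the summed linear values in LFD, 60.2%, 40.7% and 21.3% in HFD, and 57.5% and 24.0% in ob/ob. HFD replicate 1 therefore lay close to the LFD mice, and HFD replicate 2, HFD replicate 3 and ob/ob replicate 2 stood apart from the other mice. HFD replicate 3 also stood apart in genes of gut-type epithelium, with Vil1 (villin) at 10.63, against 6.40 to 8.54 elsewhere, and Tff1 (a trefoil factor of the stomach surface) at 8.27, against 3.26 to 6.10. The differences of the 6 factors from LFD are given with and without these mice.

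Of the 6 factors, Ptf1a, Rbpjl, Bhlha15, Nr5a2 and Gata4 were lower on average in both obese groups than in LFD mice, whereas the level of Gata6 was nearly the same in the 3 groups. For each factor, the range of values within each obese group was larger than the difference of that group from LFD. None of the 6 had a Benjamini-Hochberg adjusted p under 0.05 in limma in any comparison, nor did any of the 15047 genes (0% in HFD against LFD, in ob/ob against LFD, in ob/ob against HFD and in the average of both obese groups against LFD). At an unadjusted p under 0.05, 0 of 6 factors were lower in HFD, where 8.35% of all genes were, and 1 of 6, Gata4, was lower in ob/ob, where 7.18% of all genes were. In bulk tissue, fewer acinar cells and less of these RNAs per acinar cell cannot be told apart.

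**Figure D1:**
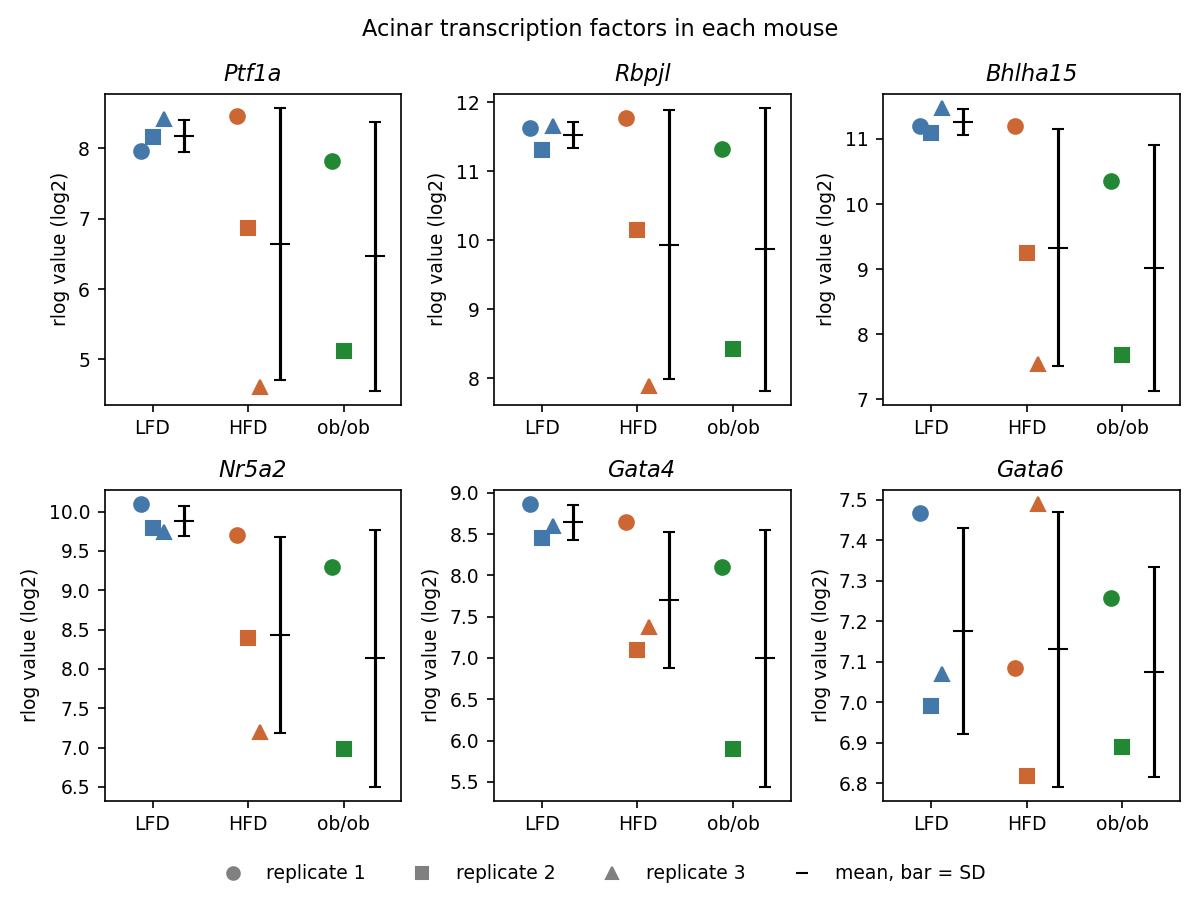
rlog value (log2) of each factor in each mouse by group, with the mean and SD of each group beside the points and an axis of its own for each gene. The 3 LFD mice lie close together for every factor, HFD and ob/ob mice spread over up to 3.88 log2 units, and the axis of Gata6 spans less than 1 log2 unit.

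The core of the PTF1 complex was, of the 6 factors, the pair with the widest spread in HFD. Ptf1a was at 7.96, 8.16 and 8.42 in the LFD mice, at 8.45, 6.87 and 4.60 in the HFD mice, and at 7.82 and 5.12 in the ob/ob mice. HFD replicate 1 was the highest of all 8 mice, and HFD replicate 3 was at 8.38% of the LFD mean. LFD mice had a mean of 8.18 ± 0.23, HFD mice of 6.64 ± 1.94 and ob/ob mice of 6.47 ± 1.91 (SD, n = 3, 3 and 2). The difference from LFD was -1.54 (SE 0.95, adjusted p = 0.377 in limma) for HFD and -1.71 (SE 1.06, adjusted p = 0.378) for ob/ob, and both differences were smaller than the spread within the obese groups.

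Rbpjl, the partner that is made in acinar cells, followed the same order of mice at the low end. It was at 11.63, 11.31 and 11.66 in LFD, at 11.77, 10.15 and 7.89 in HFD, and at 11.32 and 8.42 in ob/ob. HFD replicate 3 was at 8.02% and ob/ob replicate 2 at 11.6% of the LFD mean, while ob/ob replicate 1 was at 86.6% and overlapped the LFD mice. The difference from LFD was -1.59 (SE 0.97, adjusted p = 0.371 in limma) for HFD and -1.66 (SE 1.08, adjusted p = 0.401) for ob/ob. Over the 8 mice Ptf1a and Rbpjl had a Pearson r of 0.995, which is the highest of the 15 pairs of factors and is given as a description.

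The other proteins that enter the complex did not share this pattern. Rbpj, the widely expressed relative of Rbpjl that Notch receptors act on, was at 9.24, 8.40 and 7.99 in LFD, at 9.15, 9.52 and 9.85 in HFD, and at 9.07 and 10.31 in ob/ob. It was thus higher on average in the obese mice, although HFD replicate 1 and ob/ob replicate 1 lay below LFD replicate 1. The difference was 0.96 (SE 0.40, unadjusted p = 0.0401, adjusted p = 0.238 in limma) for HFD, where 11.5% of all genes were higher at an unadjusted p under 0.05, and 1.15 (SE 0.45, unadjusted p = 0.0311, adjusted p = 0.240) for ob/ob, where 11.6% were. The E proteins Tcf3, Tcf12 and Tcf4, the common bHLH partners of Ptf1a, differed by 0.56, 0.11 and 0.12 in HFD and by 0.50, 0.35 and 0.25 in ob/ob, none with an unadjusted p under 0.05.

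**Figure D2:**
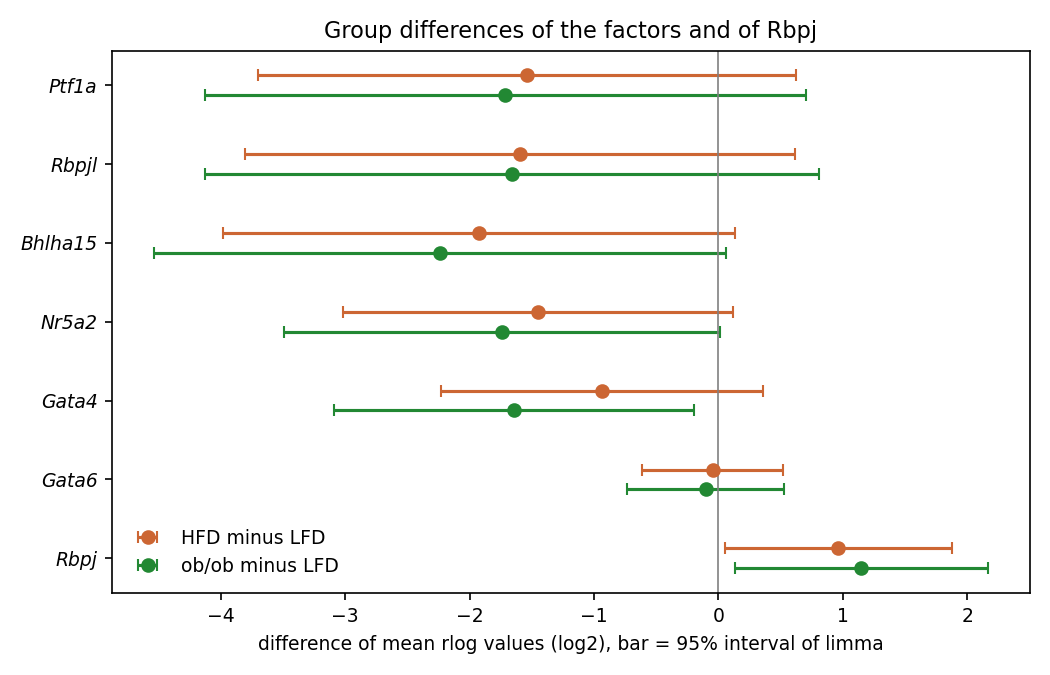
Difference of mean rlog values (log2, horizontal axis) from LFD for the 6 factors and Rbpj, with bars for the 95% interval of limma, in HFD (orange) and ob/ob (green). The intervals of Ptf1a, Rbpjl, Bhlha15 and Nr5a2 include 0 in both comparisons, that of Gata4 excludes 0 in ob/ob, those of Gata6 are the narrowest, and those of Rbpj lie above 0; no adjusted p is under 0.05.

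The promoters of Ptf1a, Rbpjl and Bhlha15 are shown because these genes ran closely together across mice and because PTF1 is known to bind an E-box and an RBPJ core placed near each other. The windows run from 250 bases before to 50 bases after the RefSeq start on GRCm38.p6, are written 5′ to 3′ on the strand of the gene, and have in capitals each match to the E-box CACCTG, the RBPJ core TGGGAA, the Nr5a2 motif CAAGGTC and the GATA motifs AGATAA and TGATAA, on either strand.
Ptf1a, chr2:19445413-19445712, plus strand: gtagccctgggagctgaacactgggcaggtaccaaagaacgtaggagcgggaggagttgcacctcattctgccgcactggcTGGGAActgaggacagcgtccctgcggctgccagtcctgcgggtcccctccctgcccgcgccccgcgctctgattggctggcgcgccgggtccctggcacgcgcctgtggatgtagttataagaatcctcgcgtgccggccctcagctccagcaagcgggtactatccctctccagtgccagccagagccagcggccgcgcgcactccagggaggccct
Rbpjl, chr2:164402944-164403243, plus strand: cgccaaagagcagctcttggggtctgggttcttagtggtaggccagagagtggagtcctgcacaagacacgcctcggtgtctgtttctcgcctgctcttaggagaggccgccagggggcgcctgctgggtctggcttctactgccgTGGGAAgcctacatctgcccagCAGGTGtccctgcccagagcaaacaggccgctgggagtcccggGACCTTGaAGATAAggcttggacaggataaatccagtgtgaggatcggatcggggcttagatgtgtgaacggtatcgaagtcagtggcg
Bhlha15, chr5:144190036-144190335, plus strand: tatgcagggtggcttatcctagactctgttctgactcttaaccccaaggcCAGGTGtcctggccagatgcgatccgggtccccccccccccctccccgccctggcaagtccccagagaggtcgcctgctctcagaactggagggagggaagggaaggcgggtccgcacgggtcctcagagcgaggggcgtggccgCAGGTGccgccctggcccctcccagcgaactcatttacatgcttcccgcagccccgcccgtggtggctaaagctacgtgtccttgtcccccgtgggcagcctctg
The Rbpjl window held the RBPJ core at -104 and the E-box, read as CAGGTG, at -82 from the start, with 16 bases between them, followed by the Nr5a2 motif, read as GACCTTG, at -39 and AGATAA at -31, with 1 base between these. The Ptf1a window held only the RBPJ core, at -169, and the Bhlha15 window only the E-box CAGGTG, at -200 and at -55. Both windows of Nr5a2 held GATA motifs, 3 matches in the window of the upstream start and 1, beside an E-box at -66, in that of the downstream start. Rbpj, whose differences from LFD were positive, also had both motifs of PTF1 in 1 of its 2 windows. That window held the E-box at -212 and the RBPJ core at -149 and at -65. The motif CATATG, another E-box form, was in none of these windows.

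These letters are common. Among 32851 promoter windows of the same length, 20.2% held CACCTG, 25.6% TGGGAA, 11.2% AGATAA, 9.05% TGATAA, 3.96% CAAGGTC and 3.91% CATATG, each on either strand, where AGATAA and TGATAA share the letters GATAA and were counted separately. An E-box together with an RBPJ core was in 5.27% of windows, and an Nr5a2 motif together with either GATA motif in 0.794%. Of the 25 acinar product genes with a window, 14 held CACCTG, 15 TGGGAA, 7 AGATAA, 10 TGATAA, 3 CAAGGTC and 0 CATATG. A match is a description of the letters and not of binding. On GRCm38 with the Gencode M21 annotation, the protein-coding genes are at chr2:19445663-19447501 on the plus strand for Ptf1a and chr2:164403141-164415448 on the plus strand for Rbpjl. Bhlha15 is at chr5:144190286-144194441 and Rbpj at chr5:53466152-53657362, both on the plus strand, Nr5a2 at chr1:136842571-136960448 and Gata4 at chr14:63198922-63271692, both on the minus strand.

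Bhlha15 had the lowest group differences from LFD of the 6 factors. It was at 11.20, 11.09 and 11.48 in LFD, at 11.20, 9.25 and 7.55 in HFD, and at 10.35 and 7.69 in ob/ob. Both ob/ob mice were below all LFD mice, and HFD replicate 1 was again level with LFD. HFD replicates 2 and 3 were at 24.8% and 7.66% of the LFD mean, and ob/ob replicates 1 and 2 at 53.3% and 8.43%. The difference from LFD was -1.93 (SE 0.90, adjusted p = 0.274 in limma) for HFD and -2.24 (SE 1.01, adjusted p = 0.272) for ob/ob, which placed the gene at rank 78 and rank 42 from the lowest of the 15047 differences. Without HFD replicate 1 the HFD difference was -2.86 with an adjusted p of 0.0337 in limma, in a fit where 7.84% of all genes were lower at an adjusted p under 0.05. Without HFD replicate 3 it was -1.03 with an adjusted p of 0.625.

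Secretory genes known to depend on Bhlha15 were at lower group means in both obese groups. All 6 that had been listed were measured and had negative differences, with a median of -1.52 in HFD and -1.78 in ob/ob, beside 0.03 and 0.04 over all genes. The 32 acinar products also all had negative differences, with lower medians of -1.96 in HFD and -2.11 in ob/ob. The shift was therefore not particular to genes that depend on Bhlha15. Tmed6 (a cargo receptor of the early secretory pathway) differed by -1.95 and -2.16, Rab26 (a small GTPase of secretory granules) by -1.97 and -1.75, and Gjb1 (connexin 32, a gap junction protein of acinar cells) by -1.35 and -1.88. Atp2c2 (a calcium pump of the secretory pathway) was at 7.37, 6.54 and 7.64 in HFD, so that HFD replicate 3, the lowest mouse for Bhlha15, was the highest HFD mouse for it. At an unadjusted p under 0.05, 3 of 6 were lower in HFD (Rab3d, Rab26 and Copz2), beside 8.35% of all genes, and 2 of 6 in ob/ob (Gjb1 and Atp2c2), beside 7.18%, and none had an adjusted p under 0.05. Of 6 factors of the endoplasmic reticulum stress response, 3 were lower at an unadjusted p under 0.05 in each comparison (Atf6, Atf4 and Creb3l1), beside the same shares of all genes. Xbp1, which acts upstream of Bhlha15 in secretory cells, was at 13.17, 13.17 and 13.27 in LFD, 13.18, 12.13 and 11.56 in HFD and 13.01 and 11.46 in ob/ob, a difference of -0.91 in HFD (adjusted p = 0.312 in limma) and -0.97 in ob/ob (adjusted p = 0.336). Ddit3, the stress-induced factor CHOP, differed by 0.10 and -0.02.

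Nr5a2 was the factor whose LFD and obese mice were fully separated. It was at 10.10, 9.80 and 9.74 in LFD, at 9.70, 8.39 and 7.20 in HFD, and at 9.29 and 6.98 in ob/ob. The lowest LFD mouse and HFD replicate 1 were only 0.04 apart. No overlap in the lower direction was found for 1 of the 6 factors in HFD, beside 12.3% of all genes, for 4 (Ptf1a, Bhlha15, Nr5a2 and Gata4) in ob/ob, beside 21.8%, and for 1 in all 5 obese mice against LFD, beside 9.05%. The difference of Nr5a2 was -1.45 (SE 0.69, adjusted p = 0.278 in limma) for HFD and -1.74 (SE 0.77, adjusted p = 0.267) for ob/ob. Without HFD replicate 1 the HFD difference was -2.08 with an adjusted p of 0.0482, beside the same 7.84% of all genes, and without HFD replicate 3 it was -0.83 with an adjusted p of 0.630. Nr0b2, which encodes the repressor SHP and is a known target of Nr5a2 in the liver, was at 6.10, 7.00 and 7.16 in LFD, 6.80, 5.15 and 4.93 in HFD and 6.88 and 4.30 in ob/ob, a difference of -1.13 and -1.17 with adjusted p of 0.391 and 0.421.

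The GATA factors differed from each other. Gata4 was at 8.87, 8.45 and 8.60 in LFD, at 8.64, 7.09 and 7.38 in HFD, and at 8.10 and 5.90 in ob/ob. Unlike the 4 factors above, its lowest HFD mouse was replicate 2 and not replicate 3. Its lowest value of all was in ob/ob replicate 2, as for Nr5a2, at 15.0% of the LFD mean. The difference from LFD was -0.94 (SE 0.57, adjusted p = 0.371 in limma) for HFD and -1.64 (SE 0.63, unadjusted p = 0.0306, adjusted p = 0.239) for ob/ob. Without ob/ob replicate 2, 0 of the 6 factors were lower at an unadjusted p under 0.05 in ob/ob against LFD, where 0.964% of all genes were, and the count was also 0 without LFD replicate 1 (4.35% of all genes) and without LFD replicate 3 (3.35%). Without ob/ob replicate 1 it was 5 of 6, beside 11.2% of all genes, without HFD replicate 3 it was 4, beside 9.19%, and without HFD replicate 1 it was 3, beside 11.7%.

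Gata6 (chr18:11052064-11085635, plus strand, GRCm38) was at 7.47, 6.99 and 7.07 in LFD, at 7.08, 6.82 and 7.49 in HFD, and at 7.26 and 6.89 in ob/ob. The 3 groups overlapped completely, and HFD replicate 3, the lowest mouse for Ptf1a, Rbpjl and Bhlha15, was the highest for Gata6. LFD mice had a mean of 7.18 ± 0.25, HFD mice of 7.13 ± 0.34 and ob/ob mice of 7.08 ± 0.26. The difference was -0.05 with a 95% interval of -0.61 to 0.52 for HFD and -0.10 with an interval of -0.73 to 0.53 for ob/ob, so that differences above 0.53 or below -0.73 lie outside both intervals. The sign of both turned in 2 of 14 alternative settings each.

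Of 6 GATA relatives and cofactors, 5 were measured. Gata5, a relative of Gata4 and Gata6 used in gut epithelium, was at 6.87 in HFD replicate 3 and between 3.07 and 4.53 in the other mice. The cofactor Zfpm1 (Fog1) was at 7.89, 8.06 and 8.35 in LFD, at 7.69, 7.44 and 7.88 in HFD and at 6.94 and 6.33 in ob/ob, with both ob/ob mice below the other 6. Its difference was -0.43 (adjusted p = 0.329 in limma) for HFD, -1.47 (SE 0.26, unadjusted p = 0.000401, adjusted p = 0.137) for ob/ob, and -1.04 when ob/ob was set against HFD (unadjusted p = 0.00365, adjusted p = 0.954). HFD replicate 3 was also high in Vil1 and Tff1, as given above, and the part of gut-type epithelium in its Gata4 and Gata6 values was not tested.

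To compare the models of obesity with each other, ob/ob was set against HFD. The differences were -0.18 for Ptf1a, -0.06 for Rbpjl, -0.31 for Bhlha15, -0.29 for Nr5a2, -0.71 for Gata4 and -0.06 for Gata6, each with an adjusted p of 0.9996 in limma. At an unadjusted p under 0.05, 0 of the 6 were lower, where 1.63% of all genes were. The 95% intervals were wide, from -2.59 to 2.24 for Ptf1a and from -2.15 to 0.74 for Gata4, so that the data set no narrow limit on a difference between the models.

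When both obese groups were averaged and set against LFD, the difference was -1.63 (SE 0.86) for Ptf1a, -1.63 (SE 0.87) for Rbpjl, -2.08 (SE 0.81) for Bhlha15, -1.59 (SE 0.62) for Nr5a2, -1.29 (SE 0.51) for Gata4 and -0.07 (SE 0.22) for Gata6. Bhlha15, Nr5a2 and Gata4, 3 of 6, were lower at an unadjusted p under 0.05, where 10.9% of all genes were, with adjusted p of 0.166, 0.165 and 0.171 in limma. A two-sided exact permutation test of 5 obese against 3 LFD mice, whose smallest possible p is 0.0357, gave p = 0.196 for Ptf1a, 0.232 for Rbpjl, 0.0714 for Bhlha15, 0.0536 for Nr5a2, 0.0893 for Gata4 and 0.732 for Gata6. Adjusted over all genes these became 0.390, 0.426, 0.256, 0.238, 0.274 and 0.841, where the smallest that this design gave was 0.219. Without HFD replicate 1, limma gave adjusted p of 0.0247 for Bhlha15, 0.0332 for Nr5a2 and 0.0442 for Gata4, and without ob/ob replicate 1 it gave 0.0492 for Gata4. In these fits 1407 and 184 of the 15047 genes were lower at an adjusted p under 0.05. Without HFD replicate 2 the differences were -1.68 for Ptf1a, -1.68 for Rbpjl, -2.06 for Bhlha15, -1.58 for Nr5a2, -1.13 for Gata4 and 0.0045 for Gata6, without HFD replicate 3 they were -1.12, -1.11, -1.64, -1.29, -1.21 and -0.16 in the same order, and without ob/ob replicate 2 they were -0.95, -0.90, -1.42, -1.02, -0.74 and 0.018. The adjusted p of these values ran from 0.206 to 0.994, and 0, 2 and 0 of the 6 were lower at an unadjusted p under 0.05, beside 7.44%, 8.89% and 5.19% of all genes. The count was also 0 without any 1 of the LFD mice, beside 5.1% to 6.88% of all genes. HFD and ob/ob share the LFD controls, so the comparisons with LFD are not independent of each other.

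The mice differed more than the groups did. HFD replicate 1 had 121%, 118%, 96.0%, 88.2%, 100% and 93.8% of the LFD mean for Ptf1a, Rbpjl, Bhlha15, Nr5a2, Gata4 and Gata6. In HFD replicate 2 the first 5 of these were between 24.8% and 40.4%, in HFD replicate 3 between 7.66% and 41.8%, in ob/ob replicate 1 between 53.3% and 86.6%, and in ob/ob replicate 2 between 8.43% and 15.0%. Without HFD replicate 3, the difference between HFD and LFD was -0.52 for Ptf1a, -0.57 for Rbpjl, -1.03 for Bhlha15, -0.83 for Nr5a2, -0.77 for Gata4 and -0.23 for Gata6, and without HFD replicate 2 it was -1.65, -1.70, -1.88, -1.43, -0.63 and 0.11. Without ob/ob replicate 2, that between the remaining ob/ob mouse and LFD was -0.36, -0.21, -0.91, -0.59, -0.54 and 0.08 in the same order. Without HFD replicate 1, the difference between HFD and LFD was instead -2.44, -2.51, -2.86, -2.08, -1.40 and -0.022, and without ob/ob replicate 1 that between the remaining ob/ob mouse and LFD was -3.06, -3.11, -3.57, -2.89, -2.74 and -0.29. The direction of the first 5 was kept in these fits, and the size of most of them depended on which obese mouse was left out. The SD within HFD was 1.95 for Rbpjl, 1.94 for Ptf1a and 1.82 for Bhlha15, which ranked 122, 126 and 157 from the highest of 15047 genes, whose median SD was 0.35. The SD of 0.34 of Gata6 ranked 7741. Within LFD the 6 factors had SDs from 0.19 to 0.25, beside a median of 0.23 over all genes.

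**Figure D3:**
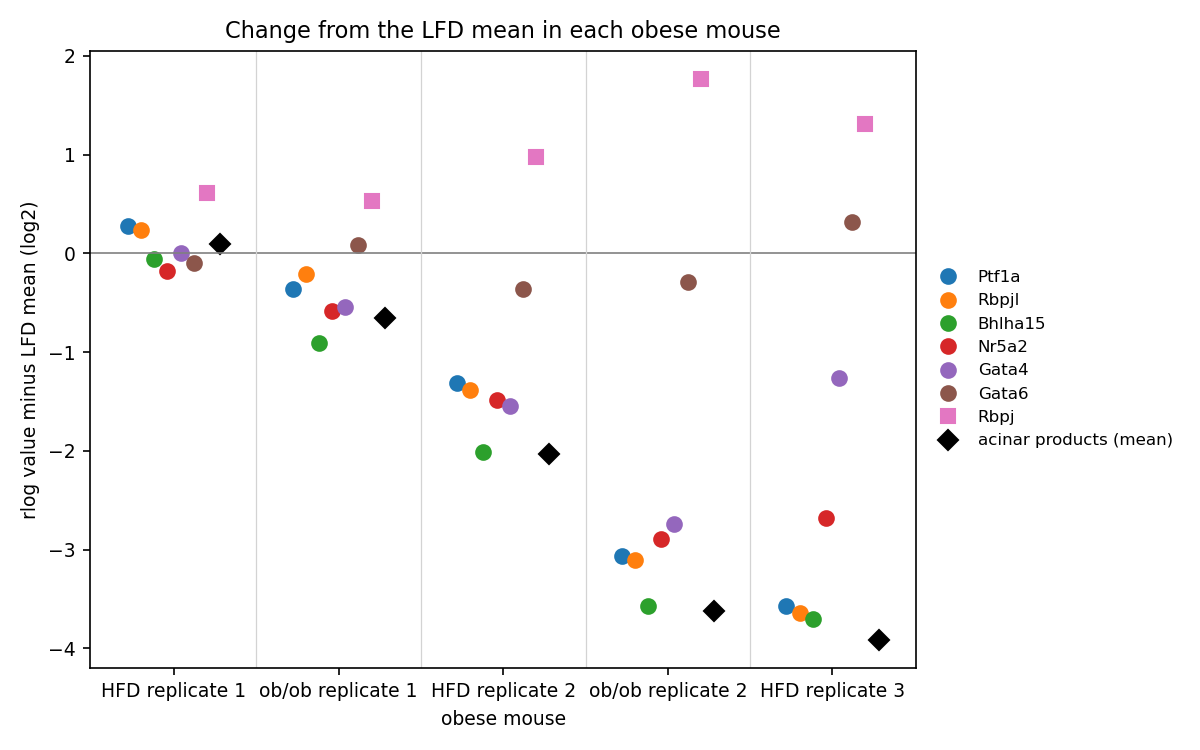
rlog value minus the LFD mean (log2) in each obese mouse for the 6 factors, Rbpj and the mean of the 32 acinar products, with the mice placed in the order of the products' value. The factors other than Gata6 spread from 0.27 in HFD replicate 1 to -3.71 in HFD replicate 3, Rbpj is above 0 in all 5 mice, and Gata6 stays between -0.36 and 0.31.

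The factors were then set against the acinar products of the same mouse. Over the 8 mice the Pearson r with the products' mean was 0.992 for Ptf1a, 0.986 for Rbpjl, 0.996 for Bhlha15, 0.978 for Nr5a2 and 0.871 for Gata4. Exact permutation p over all 40320 pairings were 4.96e-05, 0.000471, 9.92e-05, 0.00176 and 0.00925, and 0.00327, 0.00791, 0.00416, 0.0146 and 0.0386 after adjustment over 15015 genes. Such a positive relation was held by 5 of the 6 factors and by 14.8% of all genes. Spearman's rho was 0.976 (exact permutation p = 0.000397), 0.905 (0.00456), 0.929 (0.00223), 0.762 (0.0368) and 0.762 (0.0368) in the same order, and the last values, those of Nr5a2 and Gata4, had an adjusted p of 0.102. Gata6 had an r of -0.03 (exact permutation p = 0.951, adjusted p = 0.970) and a rho of -0.07 (p = 0.882). Rbpj ran the other way, with an r of -0.854 (exact permutation p = 0.00657, adjusted p = 0.0313) and a rho of -0.857 (p = 0.0107, adjusted p = 0.0511).

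Without HFD replicate 3 and ob/ob replicate 2, which lay farthest from the median product level, r over 6 mice was 0.989 for Ptf1a, 0.942 for Rbpjl, 0.978 for Bhlha15, 0.901 for Nr5a2 and 0.925 for Gata4, while it was -0.700 for Rbpj and 0.411 for Gata6. Of these 6 mice HFD replicate 2 had products at 15.07 and the other mice between 16.44 and 17.39, so that r over them leans on 1 mouse. No r was computed over the 5 mice that remain without it. Deviations from the group means, which leave out the differences between groups, had an r of 0.993, 0.986, 0.996, 0.969, 0.829, -0.149 and -0.752 for Ptf1a, Rbpjl, Bhlha15, Nr5a2, Gata4, Gata6 and Rbpj. These values share library and normalization, and the labels name no batch.

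**Figure D4:**
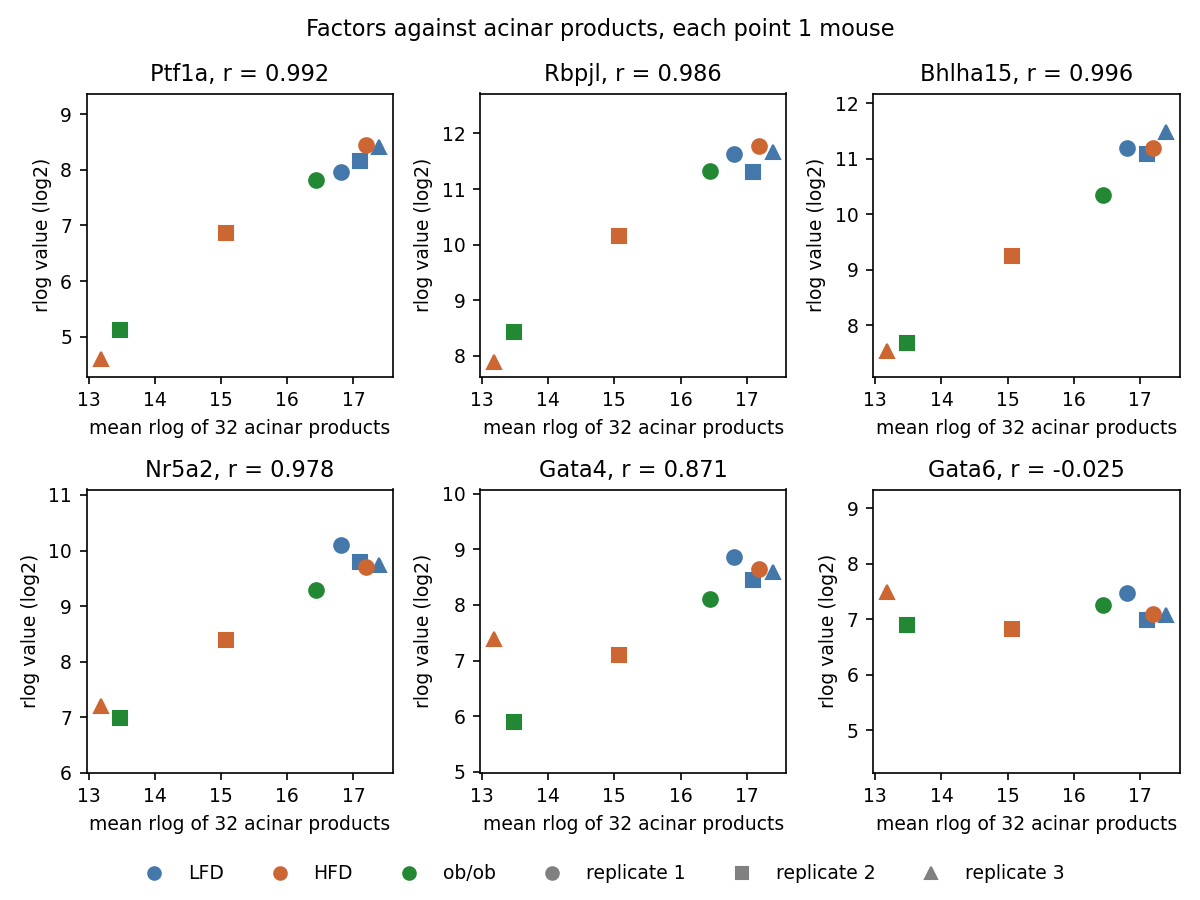
rlog value (log2) of each factor against the mean rlog value of 32 acinar products, each point 1 mouse, with vertical axes of equal length in all panels and Pearson's r above each. Ptf1a, Rbpjl, Bhlha15 and Nr5a2 lie close to a line, HFD replicate 3 is above the line of the other mice for Gata4, and Gata6 is flat.

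The slopes show how far each factor moved per log2 unit of the products. They were 0.94 for Bhlha15, 0.90 for Rbpjl, 0.88 for Ptf1a, 0.70 for Nr5a2, 0.52 for Gata4 and -0.004 for Gata6, with -0.37 for Rbpj. HFD replicate 3, whose products were at 6.63% of the LFD mean, had Bhlha15 at 7.66%, Nr5a2 at 15.6%, Gata4 at 41.8% and Gata6 at 124%. The change of the factor minus that of the products in this mouse was 0.21 for Bhlha15, 0.27 for Rbpjl, 0.34 for Ptf1a, 1.24 for Nr5a2, 2.66 for Gata4 and 4.23 for Gata6. In ob/ob replicate 2, with products at 8.13%, it was 0.05, 0.51, 0.56, 0.73, 0.88 and 3.33 in the same order. Gata4 was thus the factor that differed most between these mice, and without HFD replicate 3 its r with the products was 0.978. When limma was fitted to values relative to the products, 0 of the 6 factors had an adjusted p under 0.05, beside 0.0199% of all genes in HFD against LFD and 0.0199% in ob/ob against LFD; the largest difference was that of Gata6, 1.90 (SE 1.49) in HFD and 2.04 (SE 1.67) in ob/ob. Without HFD replicate 1 that of Gata6 in HFD was 2.95 with an adjusted p of 0.0486 in limma, in a fit where 61.7% of all genes were higher relative to the products at an adjusted p under 0.05. In limma the spread of each gene is drawn towards that of all genes. The SE of Bhlha15 was 1.31 in HFD although its own change minus that of the products ran only from -0.25 to 0.24 over the 8 mice, so that the absence of a call says little about the factors that followed the products.

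Many genes ran with the acinar factors. Outside the products, 11800 genes reached a mean rlog of 5, and of these 1023 had an r above 0.9 with Ptf1a, 926 with Rbpjl, 1300 with Bhlha15, 1036 with Nr5a2, 460 with Gata4 and 7 with Gata6. The closest to Ptf1a were Rbpjl (r = 0.995), Reg3d (a Reg family protein, 0.994) and Erp27 (an endoplasmic reticulum protein, 0.993), and those to Rbpjl were Reg3d (0.997), Sostdc1 (a secreted BMP antagonist, 0.997) and Chrm3 (the muscarinic receptor of acinar cells, 0.997). Gna14 (a G protein subunit, 0.999), Mknk1 (a kinase, 0.998) and Cabp2 (a calcium-binding protein, 0.998) were closest to Bhlha15. Pm20d2, Erich5 and Ddo (D-aspartate oxidase) were closest to Nr5a2, with r from 0.995 to 0.996, and Tmem56, Cmtm4 and Mfsd4a were closest to Gata4, with r from 0.990 to 0.994. Kcnn3 (a calcium-activated potassium channel, 0.977), Tmem94 (0.936) and Rab11fip3 (a Rab11 effector, 0.928) were closest to Gata6.

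Antagonists of the acinar bHLH factors were looked at next. Id proteins bind E proteins and keep them from DNA, and all 4 Id genes were measured. Id3 was at 6.55, 6.81 and 6.81 in LFD, at 6.92, 8.08 and 7.89 in HFD and at 7.69 and 7.98 in ob/ob, with all 5 obese mice above all LFD mice. Its difference was 0.91 (SE 0.31, adjusted p = 0.200 in limma) for HFD and 1.11 (SE 0.34, adjusted p = 0.205) for ob/ob, and it was the only Id gene with an unadjusted p under 0.05, beside 11.5% and 11.6% of all genes that were higher. Such a full separation in the higher direction was seen for 9.4% of all genes. Id1 differed by 0.79 and 0.57, Id2 by 0.45 and 0.28 and Id4 by -0.14 and 0.32.

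In the Notch pathway, which signals through Rbpj and opposes acinar differentiation, 1 of 11 genes was higher at an unadjusted p under 0.05 in HFD, beside 11.5% of all genes, and 0 in ob/ob, beside 11.6%, and the median difference was 0.36 and 0.13, beside 0.03 and 0.04 over all genes. That gene was Hes1, a repressor that Notch induces, at 6.81, 6.66 and 6.38 in LFD, 6.70, 7.90 and 7.67 in HFD and 7.39 and 7.35 in ob/ob, a difference of 0.81 (SE 0.31, adjusted p = 0.223 in limma) and 0.76 (SE 0.35, adjusted p = 0.280). The receptor Notch2 differed by 0.67 and 0.95 and the ligand Dll4 by 0.76 and 0.28, and the ligand Jag2 by 0.24 and -0.97.

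**Figure D5:**
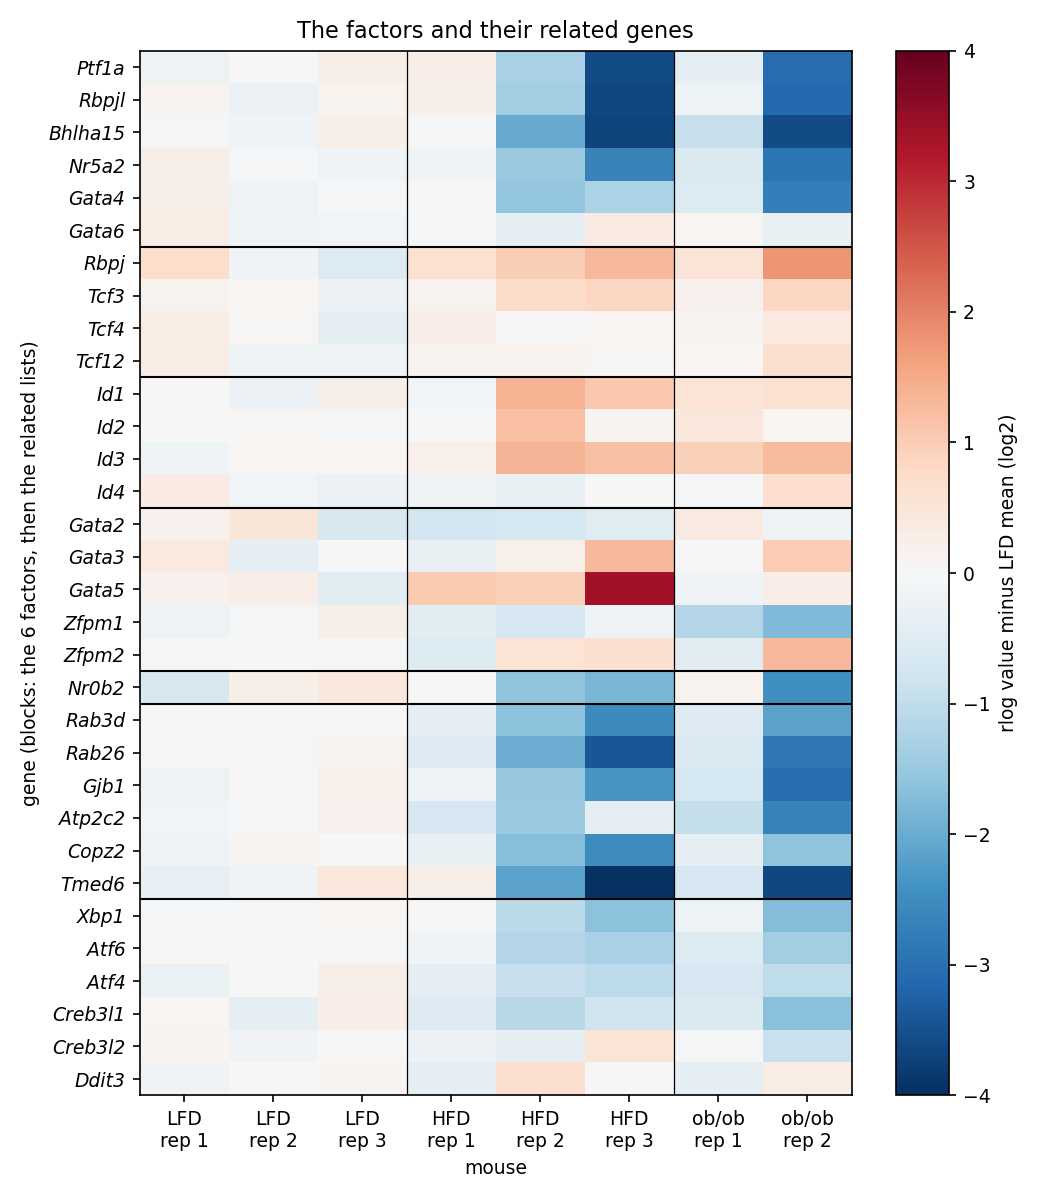
rlog value minus the LFD mean (log2, color) for each mouse and gene, in blocks for the 6 factors, PTF1 partners, bHLH inhibitors, GATA relatives and cofactors, Nr0b2, Bhlha15 secretory genes and endoplasmic reticulum stress factors. The blue of the factors in HFD replicates 2 and 3 and ob/ob replicate 2 recurs in the secretory genes and Nr0b2, Gata6 is pale, Rbpj and Id3 are red, and Gata5 stands out in HFD replicate 3 at a color step near 3.4.

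Acinar-to-ductal metaplasia is the change of acinar cells into duct-like cells. Of 13 of its factors, 11 had a positive difference from LFD in HFD and 10 in ob/ob, beside 7879 and 7988 of 15047 genes. At an unadjusted p under 0.05, 5 were higher in HFD, beside 11.5% of all genes, and 3 in ob/ob, beside 11.6%. The median difference was 0.60 and 0.59, and none had an adjusted p under 0.05. Runx1, which is also a factor of blood cells, differed by 1.72 (SE 0.43, adjusted p = 0.179 in limma) and 1.17 (SE 0.48, adjusted p = 0.254), Prrx1, also a mesenchymal factor, by 0.93 and 1.27, and Sox4 by 0.92 and 0.71. Sox9, which marks ducts and is switched on in metaplastic acinar cells, differed by -0.01 and -0.08, with values from 6.85 to 7.12 in all 8 mice. Like Gata6 it was therefore level across mice in which the products differed more than 10-fold.

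Other factors of pancreatic epithelium were set beside them. Of 14, 13 were measured, and 1 was higher at an unadjusted p under 0.05 in HFD, beside 11.5% of all genes, and 4 lower in ob/ob, beside 7.18%, with a median difference of -0.19 and -0.29. Foxa3 differed by -1.04 and -1.70 and Onecut1 (Hnf6, a factor of the developing pancreas) by -1.02 and -1.08. Onecut2 was at 7.47, 7.49 and 7.04 in LFD, 8.10, 8.87 and 9.37 in HFD and 7.24 and 7.08 in ob/ob, so that it was higher in all 3 HFD mice than in all other mice. Its difference was 1.44 (SE 0.31, adjusted p = 0.175 in limma) in HFD, -0.18 (SE 0.35, adjusted p = 0.792) in ob/ob and -1.62 (SE 0.35, adjusted p = 0.883) for ob/ob against HFD. Hnf4g was at 7.32 in HFD replicate 3 and between 3.54 and 4.13 in the other mice.

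Several markers of leukocytes and fibroblasts had higher group means in both obese groups than in LFD mice. Ductal markers went both ways, with 5 of 8 at a positive difference from LFD in HFD and 3 in ob/ob. Of 9 leukocyte markers, 4 were higher at an unadjusted p under 0.05 in HFD, beside 11.5% of all genes, and 6 in ob/ob, beside 11.6%, with Adgre1 (a surface protein of macrophages) at a difference of 1.26 and 1.88. The log2 of the summed leukocyte markers, of which Lyz2 was the most abundant, was 13.53, 13.15 and 13.00 in LFD, 13.81, 14.75 and 13.89 in HFD and 14.31 and 15.22 in ob/ob. HFD replicates 1 and 3 were close in this sum, while Csf1r (a receptor of macrophages) was at 9.77 and 10.86 in them. Of 8 fibroblast markers, 4 were higher in HFD and 7 in ob/ob, beside the same shares, with Col1a1 at 2.16 and 2.19, and the log2 of their sum, led by Col3a1, was 13.80, 13.73 and 13.52 in LFD, 14.14, 14.76 and 15.36 in HFD and 14.64 and 15.76 in ob/ob. Of 8 ductal markers, 3 were higher in HFD (Krt19, Krt7 and Spp1), beside 11.5% of all genes, while in ob/ob 1 (Spp1) was higher, beside 11.6%, and 2 (Muc1 among them) were lower, beside 7.18%. The log2 of the ductal sum, led by Spp1, was 13.16, 13.46 and 13.41 in LFD, 13.73, 14.70 and 13.94 in HFD and 13.85 and 14.27 in ob/ob. None of these markers was at 0 or had an adjusted p under 0.05, and their part in the lower values of the acinar factors was not tested.

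Cells at the surface of the pancreas were represented too. Of 6 mesothelial markers, Msln was higher in HFD, and Upk3b and Lrrn4 lower in both comparisons, at an unadjusted p under 0.05, beside 11.5% of all genes higher in HFD and 8.35% and 7.18% lower in HFD and ob/ob, with a log2 sum, led by Msln, of 9.30, 9.31 and 9.19 in LFD, 9.13, 10.54 and 10.19 in HFD and 9.17 and 9.96 in ob/ob. Of 4 peritoneal macrophage markers, Timd4 was lower in both, beside the same shares, at a difference of -1.13 and -1.37, while Alox15 differed by 0.28 and 0.89, Garnl3 by 0.18 and 1.06 and Icam2 by 0.51 and 0.12, none with an unadjusted p under 0.05. The 4 endothelial and 4 adipocyte markers, led by Pecam1 and Fabp4, had none with an unadjusted p under 0.05, and their log2 sums lay between 9.68 and 10.67 and between 9.56 and 11.08. Of 6 intestinal and 5 stomach markers, 1 (Vil1) and 2 (Gkn1 and Tff1) were among the genes measured, so admixed gut tissue could be checked with few genes.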

How the data were processed

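RNA was isolated from pancreas with Trizol and sequenced paired-end. The authors ran FastQC on the reads, used Salmon 0.11.3 with the Gencode M18 transcripts (GRCm38.p6), summed them per gene with tximport and deposited log2 values made with the rlog function of DESeq2 1.22.2. The filter on genes and the use of groups by rlog are not given in the sources used here. Salmon shares reads of similar transcripts by probability, and rlog shrinks differences of low genes.

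Counts were not used here, so depth is unknown and no count test was run. rlog values of all 15047 genes and 8 mice were fitted with limma 3.58.1 in R 4.3.3 (group means, variance trend), and p-values were Benjamini-Hochberg adjusted over all genes. Correlations were tested over all pairings of mice in Python 3.11.15 with numpy 2.4.6. The limma and correlation steps were tested on simulated data. Groups and replicates follow the labels.

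The members and lists were chosen with earlier results of these data known. From each list the up to 3 genes with the largest difference each way between obese and LFD mice were named, with the most abundant marker and the 3 genes closest to each factor. Genes named beside a count of 5 or fewer, for HFD replicate 3, Lep, Sox9, Ddit3, Tcf4, Onecut2 and Hnf4g were named after their values were seen where this rule does not cover them. Values of a few listed genes are not reported here. Gene lists not described in the report are given in the closing section. Promoters are those of RefSeq on GRCm38.p6. 4 of the 6 factors had a promoter sequence. Alternatives were no variance trend, only the groups compared, a mean rlog of at least 5, centring on mouse medians, quantile normalization, the median of the products, a replicate block, Spearman's rho, and leaving out each mouse.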

Additional observations from a re-analysis of the deposited data

How the results depend on the processing

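The differences of Ptf1a, Rbpjl, Bhlha15, Nr5a2 and Gata4 were negative in 70 of 70 values from alternatives for HFD against LFD, 70 of 70 for ob/ob against LFD and 65 of 65 for the mean of both against LFD, and in 59 of 70 for ob/ob against HFD. The adjusted p in limma ranged from 0.0337 to 0.807, from 0.0635 to 0.987 and from 0.0247 to 0.611 in the comparisons with LFD. The 6 values under 0.05 came from leaving out HFD replicate 1 or ob/ob replicate 1 and are given in the report. With 3, 3 and 2 mice and no depth, the data set wide limits, and the cause of each shift below was not tested, other than that fewer mice or genes entered a fit. Only the groups compared could not be fitted for the mean of both obese groups.

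With only the groups compared, 3 factors were lower at an unadjusted p under 0.05 in HFD against LFD (beside 9.28% of all genes) and 5 in ob/ob against LFD (11.3%), 1 and 38 genes had an adjusted p under 0.05, and 353 genes had an unadjusted p under 0.05 in ob/ob against HFD, where it was 389 with a mean rlog of at least 5 and 588 as reported. Centring on mouse medians gave 2 factors in ob/ob against LFD (9.15%), where 1 is reported. The replicate block gave 3 factors in HFD (8.89%), 4 in ob/ob (9.04%) and 5 in the mean of both (11.9%). The labels name no pairing of mice by replicate number, so the block has no basis in the labels. Same-numbered LFD and HFD mice had correlations of their deviations from the group means of -0.06, 0.11 and -0.28. They were -0.10 and 0.13 for LFD and ob/ob mice, and 0.59 and 0.30 for HFD and ob/ob mice. The deviations of the 2 ob/ob mice are opposite by construction, so these correlations cannot decide whether mice were paired. For ob/ob against HFD, Rbpjl turned to 0.0081 with quantile normalization and Gata6 to 0.0069 with the replicate block. Relative to the products, Bhlha15 in HFD against LFD turned to -0.19 with the median of the products, and Ptf1a in ob/ob against HFD to -0.011 with that median and -0.019 with the block. Spearman's rho was 0.762 for Nr5a2 and for Gata4, and the r of Gata6 was 0.187 after centring and 0.411 without the 2 mice farthest from the median.

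Leaving out each mouse in turn gave from 0 to 5 factors with an unadjusted p under 0.05 in HFD and in the mean of both against LFD. With both ob/ob mice kept, it gave from 0 to 4 in ob/ob against LFD, beside 3.35% to 11.7% of all genes. For ob/ob against HFD these fits gave 0, beside 1.15% to 4.17%. The share of all genes that were lower moved with these counts, from 3.68% to 5.19% in the fits with 0 factors in HFD to 16.4% without HFD replicate 1, which gave 5. Where 1 ob/ob mouse was left, it was assumed to vary like the mice of the other groups. Genes with an adjusted p under 0.05 ran from 0 to 2812 in HFD, from 0 to 89 in ob/ob, from 0 to 1 in ob/ob against HFD and from 0 to 3326 in the mean of both, with the highest counts without HFD replicate 1 except in ob/ob against HFD, and 61 in ob/ob and 476 in the mean of both without ob/ob replicate 1. Genes with an unadjusted p under 0.05 ran from 1480 to 5445, from 752 to 4075, from 369 to 1117 and from 2037 to 5824 in the same order. The difference of Gata6 ran from -0.23 to 0.11 in HFD, from -0.29 to 0.082 in ob/ob and from -0.17 to 0.072 in the mean of both. In ob/ob against HFD it ran from -0.24 to 0.13, that of Ptf1a from -1.52 to 1.17, Rbpjl from -1.51 to 1.39, Bhlha15 from -1.64 to 1.02, Nr5a2 from -1.45 to 0.86 and Gata4 from -1.81 to 0.39. Relative to the products, Bhlha15 ran from -0.067 to 0.14 in HFD, from -0.25 to 0.052 in ob/ob, from -0.12 to 0.082 in the mean of both and from -0.28 to 0.027 in ob/ob against HFD, where Ptf1a ran from -0.12 to 0.17, Nr5a2 from -0.49 to 0.26, Gata4 from -1.07 to 0.30 and Gata6 from -1.17 to 1.43. Relative to the products and without HFD replicate 1, Gata6 was at 2.95 in HFD (adjusted p = 0.0486 in limma) and 2.49 in the mean of both (adjusted p = 0.0436). In that fit 61.7% and 70% of all genes were higher relative to the products at an adjusted p under 0.05. The r with the products ran from 0.842 to 0.978 for Gata4 and from -0.320 to 0.528 for Gata6.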

Other observations

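Most islet genes had negative differences from LFD in HFD and positive ones in ob/ob. Of 12 islet transcription factors, 9 were measured, with a median difference from LFD of -0.41 in HFD and 0.50 in ob/ob. At an unadjusted p under 0.05, 0 differed in HFD, where 11.5% of all genes were higher and 8.35% lower. In ob/ob 2 were higher, beside 11.6% of all genes, among them Pax6 (1.06, adjusted p = 0.204 in limma). Pax6 was at 4.81, 4.25 and 4.21 in LFD, 4.26, 3.74 and 3.77 in HFD and 5.62 and 5.36 in ob/ob. Of 8 islet hormone and granule genes, 0 differed in HFD at an unadjusted p under 0.05, beside the same HFD shares of all genes. In ob/ob 6 were higher, beside 11.6%, with Chgb (chromogranin B) at a difference of 2.07, Iapp (amylin) at 1.62 and Ppy (pancreatic polypeptide) at 1.55. None of the 8 had an adjusted p under 0.05. In HFD 7 of the 8 had negative differences, with a median of -0.40. Gcg (glucagon) differed by -0.86 in HFD and -0.35 in ob/ob, and Sst (somatostatin) by -0.78 and -0.90. The log2 of their sum, led by Ins2, was 13.21, 14.09 and 13.11 in LFD, 13.47, 12.97 and 12.67 in HFD and 15.21 and 14.12 in ob/ob.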
